A study of Homo sapiens with 12 samples.

Results

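BCL6, its corepressors BCOR, BCORL1 and NCOR1, and the related repressor ZBTB7A were followed through 12 RNA-seq libraries of MCF10AT cells. The 5 genes were named by symbol and found by Ensembl identifier among 62702 entries with values. All 5 passed the filter on low counts, which kept 17677 genes. They were chosen by symbol with the prolactin (PRL) response of these libraries known, that is with the PRL log2 fold changes of the same libraries in view, so their PRL effects are given as a description from which no significance is read, while the I-tail deletion effects and the difference between the receptor pairs were tested.

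MCF10AT cells are human breast epithelial cells of the MCF10A lineage that carry an activated Ras gene. All libraries came from cells that express the long (hPRLrL) and the intermediate (hPRLrI) human prolactin receptor, starved of serum for 24 h. The groups were I-tail intact with PRL at 250 ng/ml for 2 h, I-tail intact untreated, I-tail deleted with PRL at that dose and time, and I-tail deleted untreated, with 3 libraries each that the labels call biological replicates. The promoter of the receptor constructs, and whether the cells are clones or pools, were not given in the sources used here.

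Library totals ran from 36120808 to 57324865 counts, and between 19073 and 25200 entries had a count. The lowest of these numbers was that of intact PRL library 2. On the leading principal component (35.4% of the variance) that library and intact untreated library 2 lay highest, at 94.3 and 49.4. Library 1 of every group lay at the other end, at -54.7 to -40.4, and the remaining libraries at -10.5 to 27.1. The component thus also set the libraries numbered 1 apart. In both receptor pairs, each PRL library lay higher on it than the untreated library of the same number. Each PRL library also had fewer entries with a count than that untreated library. The cause was not tested. PRLR, the gene of the receptors, lay between 3099 and 3959 CPM (read counts scaled to TMM library sizes) with PRL and between 3220 and 3655 CPM in untreated cells, and a gene count does not show the I-tail. All 12 mammary epithelial markers, basal and luminal keratins among them, were above 1 CPM in every library, KRT5 between 310 and 3330 CPM and KRT8 between 863 and 2324 CPM. Of 10 markers of B cells, the cells in which BCL6 is best known, MS4A1 had no count in any library, and 2, CD22 and MME, were above 1 CPM in every library. The summed level of the B cell markers was 6.27 to 12.1 CPM in cells with PRL and 7.67 to 11.6 CPM in untreated cells.

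BCL6 is a transcriptional repressor with zinc fingers that bind DNA and a BTB domain that forms dimers. The BTB dimer recruits corepressors such as NCOR1 and BCOR, which bring histone deacetylases or a Polycomb complex to the bound gene. BCL6 and STAT proteins can bind overlapping DNA sites, and PRL signals through STAT5 in breast epithelium, where a fall of BCL6 after PRL has been described before. ZBTB7A is itself a BTB zinc finger protein that binds DNA, so it is a relative of BCL6 more than a corepressor.

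STAT and BCL6 type sites are often written TTCNNNGAA, which reads the same on both strands. Promoter windows of 300 bases, from 250 before to 50 after an annotated start site, were searched for it in RefSeq's sequences (GRCh38.p14). The 5 genes had 10 such windows. The motif was present in 2 of them, the window of the upstream BCL6 start site with 4 matches and that of the inner NCOR1 start site with 1. Among all 35114 windows, 7.66% held at least 1 match, 0.0484% at least 3 and 0.0199%, or 7 windows, at least 4. The CISH window, of a STAT5 target gene used here as a landmark of the PRL response, was another of these 7. The rest were windows of ZNF112, ZNF225, ZNF225-AS1 and LOC124907892. In the list of reported BCL6 and STAT5 target genes described below, 3 of 32 windows (9.38%) held at least 1 match, CISH among them. Below, the upstream BCL6 window (chr3:187745419-187745718, minus strand, GRCh38) and the CISH window (chr3:50611725-50612024, minus strand) are set beside the upstream BCOR window (chrX:40177228-40177527, minus strand), which held no match. Capitals mark the matches.

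BCL6: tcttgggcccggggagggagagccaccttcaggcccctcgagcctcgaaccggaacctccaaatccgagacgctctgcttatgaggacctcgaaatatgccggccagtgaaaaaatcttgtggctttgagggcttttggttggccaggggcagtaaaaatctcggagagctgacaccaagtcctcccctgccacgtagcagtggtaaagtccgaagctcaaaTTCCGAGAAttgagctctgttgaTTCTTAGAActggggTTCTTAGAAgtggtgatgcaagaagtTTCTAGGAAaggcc
CISH: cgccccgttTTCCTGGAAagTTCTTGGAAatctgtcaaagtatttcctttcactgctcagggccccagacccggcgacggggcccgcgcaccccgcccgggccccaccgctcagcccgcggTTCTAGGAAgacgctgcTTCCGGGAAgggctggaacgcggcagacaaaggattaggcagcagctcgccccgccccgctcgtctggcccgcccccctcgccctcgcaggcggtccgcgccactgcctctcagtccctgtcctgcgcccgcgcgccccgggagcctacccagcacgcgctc
BCOR: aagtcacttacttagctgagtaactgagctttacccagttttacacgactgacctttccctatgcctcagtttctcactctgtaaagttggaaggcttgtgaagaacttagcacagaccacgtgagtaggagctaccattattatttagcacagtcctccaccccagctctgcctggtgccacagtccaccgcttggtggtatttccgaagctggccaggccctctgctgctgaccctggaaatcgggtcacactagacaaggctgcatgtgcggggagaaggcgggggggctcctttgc

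The 4 BCL6 matches began at -28, -5, 11 and 37 relative to the first base of the RefSeq start site, so they lay around that start site. Those of CISH began at -241, -230, -129 and -112, all upstream of its RefSeq start site. In GENCODE 29 the BCL6 gene, on the minus strand, has its first base at 187745727. By that annotation the whole BCL6 window, with its 4 matches, lies inside the gene. The BCL6 matches were TTCCGAGAA, TTCTTAGAA, a repeat of TTCTTAGAA, and TTCTAGGAA, which is also among those of CISH. A match is a string of letters and no measurement of binding, and the windows without one say nothing about other regions of those genes.

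**Figure D1:**
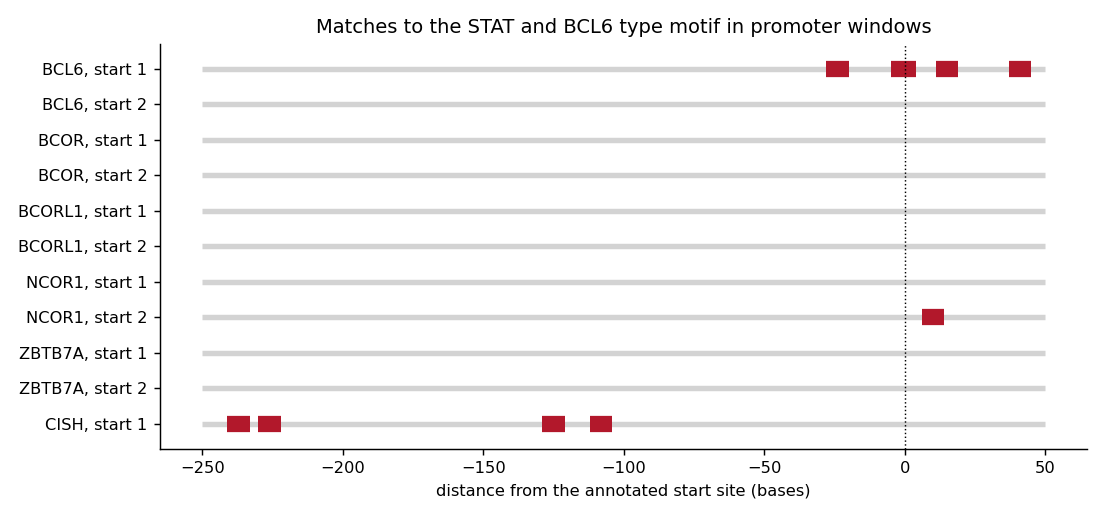
Positions of TTCNNNGAA matches (red) in promoter windows of the 5 genes and CISH, by distance in bases from each annotated start site, with 1 line per window. The upstream BCL6 window and the CISH window hold 4 matches each, the inner NCOR1 window holds 1, and the other 8 windows of the 5 genes hold none.

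BCL6 (ENSG00000113916) lies on chromosome 3 at 187721377 to 187745727 on the minus strand (GENCODE 29, GRCh38). With the intact I-tail it measured 12.5, 3.56 and 6.78 CPM in the libraries with PRL, against 41.3, 26.9 and 34.2 CPM in the untreated ones. With the I-tail deleted it measured 9.94, 5.89 and 4.75 CPM with PRL, against 34.1, 29.8 and 27.0 CPM untreated. All 6 libraries with PRL were below all 6 untreated libraries, with the highest PRL value at 12.5 CPM and the lowest untreated value at 26.9 CPM.

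The lowest BCL6 value was that of intact PRL library 2, where it rested on 119 counts, and the highest values with PRL were those of library 1 in both receptor pairs. Group means were 7.60 ± 4.51 CPM with PRL and 34.2 ± 7.20 CPM untreated with the intact I-tail, and 6.86 ± 2.73 CPM with PRL and 30.3 ± 3.55 CPM untreated with the deleted one (SD, n = 3 each). The fitted log2 fold change with PRL was -2.16 ± 0.39 (SE) with the intact and -2.14 ± 0.39 with the deleted I-tail. Averaged over both receptor pairs it was -2.15, with a 95% interval of -2.74 to -1.56. Of the 12950 genes with a mean of at least 1 CPM, none had a lower value of this average, and of all 17677 tested genes 10 had. That rank describes values in view when the genes were chosen. Without intact PRL library 2 and intact untreated library 2 the averaged log2 fold change was -2.05. In bulk RNA, less BCL6 RNA per cell and fewer cells that contain it cannot be told apart.

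BCOR (ENSG00000183337, chromosome X, 40049815 to 40177329, minus strand) is the scaffold of the Polycomb complex PRC1.1 and binds the BTB domain of BCL6. It measured 164.4, 146.2 and 94.7 CPM in intact PRL libraries, against 79.8, 67.5 and 75.5 CPM in intact untreated ones. With the I-tail deleted it measured 152.3, 156.6 and 116.7 CPM with PRL, against 74.9, 79.2 and 73.3 CPM untreated. All 6 libraries with PRL stood above all 6 untreated libraries, and library 3 was the lowest with PRL in both receptor pairs. The untreated libraries spread less, with SDs of 6.21 CPM intact and 3.04 CPM deleted, against 36.2 CPM and 21.9 CPM with PRL.

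The averaged log2 fold change of BCOR was 0.88 ± 0.15, or 1.85-fold, at 0.86 ± 0.21 with the intact and 0.91 ± 0.21 with the deleted I-tail. Without intact PRL library 2 and intact untreated library 2 it was 0.83. The averaged PRL effect was in view when the genes were chosen, so that 2 of 5 (BCL6 and BCOR) lie past the edgeR threshold restates the choice, and nothing is read from it or from the share among all tested genes, 0.119% at an adjusted and 3.81% at an unadjusted p under 0.05. Groups without overlap were found in 0.238% of tested genes for all 6 PRL libraries below all untreated ones, as in BCL6, and in 0.441% for all above, as in BCOR, which likewise describes the chosen values. Over the 12 leave-outs of 1 library the averaged log2 fold change was -2.43 to -1.98 for BCL6 and 0.80 to 0.99 for BCOR.

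BCORL1 (ENSG00000085185, chromosome X, 129981107 to 130058083, plus strand), the paralog of BCOR, also acts as a corepressor in a PRC1.1 type complex. It measured 66.2, 78.2 and 95.9 CPM in intact PRL libraries, against 70.0, 93.2 and 91.2 CPM in intact untreated ones. With the I-tail deleted it measured 60.3, 61.2 and 73.9 CPM with PRL, against 81.1, 71.2 and 79.3 CPM untreated. The groups overlapped in both receptor pairs, and the averaged log2 fold change was -0.16 ± 0.13, with an interval of -0.44 to 0.12.

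NCOR1 (ENSG00000141027, chromosome 17, 16029157 to 16218185, minus strand) brings the deacetylase HDAC3 to BCL6 and to nuclear receptors. It measured 75.7, 58.1 and 60.2 CPM in intact PRL libraries, against 72.6, 66.5 and 55.6 CPM in intact untreated ones, and 86.0, 68.6 and 59.6 CPM in deleted PRL libraries, against 79.9, 71.8 and 64.2 CPM in deleted untreated ones. Its averaged log2 fold change with PRL was -0.01 ± 0.13, with an interval of -0.29 to 0.28. Library 1 had the highest value in each of the 4 groups, and the SD within a group was 7.84 to 13.4 CPM.

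ZBTB7A (ENSG00000178951, chromosome 19, 4044364 to 4066945, minus strand) was the member with the highest counts. It measured 182.2, 219.9 and 180.1 CPM in intact PRL libraries, against 152.4, 205.4 and 185.9 CPM in intact untreated ones, and 172.6, 211.3 and 187.3 CPM in deleted PRL libraries, against 168.0, 183.3 and 157.4 CPM in deleted untreated ones. The groups overlapped, and the averaged log2 fold change was 0.13 ± 0.12, with an interval of -0.13 to 0.40.

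**Figure D2:**
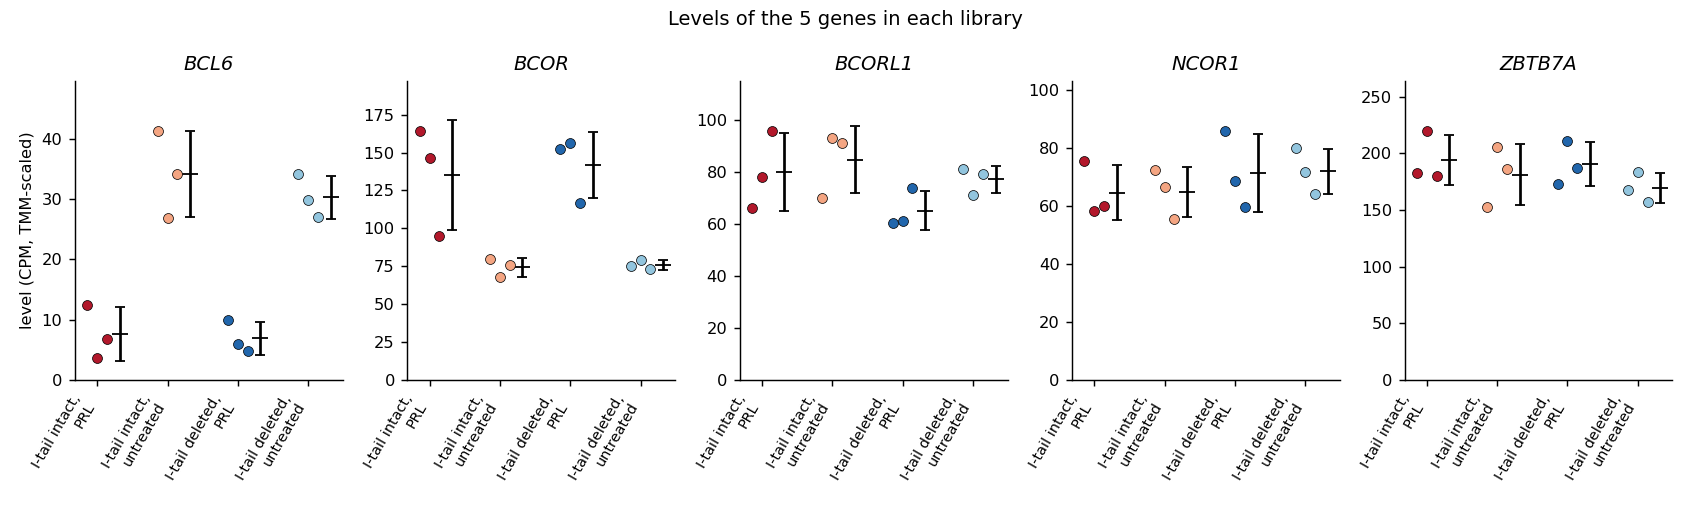
Level of each gene in every library in TMM-scaled CPM (points, 3 per group, in the order of the replicate numbers), with the group mean and SD beside them. The 6 PRL libraries lie below the untreated ones in BCL6, at 3.56 to 12.5 CPM, and above them in BCOR, at 94.7 to 164.4 CPM, while the groups overlap in BCORL1, NCOR1 and ZBTB7A.

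Counting without strand could mix a gene with one on the other strand, and the strand setting was not given in the sources used here. The 2 antisense genes that overlap BCL6 had summed counts of 2 and 72 over all 12 libraries. NCOR1 shares 321 exon bases with PIGL, on the other strand (log2 fold change with PRL 0.00 ± 0.15), and its 5 annotated partial copies named NCOR1P1 to NCOR1P4 had summed counts of 0 to 5. No gene overlaps BCOR or BCORL1 in GENCODE 29.

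Levels of different genes were compared per length, as CPM per kb of annotated exon. In untreated cells ZBTB7A was highest, with a mean of 31.7 in intact and 29.6 in deleted cells. BCORL1 followed at 10.6 and 9.66, then BCOR at 8.69 and 8.87, BCL6 at 5.75 and 5.11, and NCOR1 at 4.21 and 4.67. The ranges of the libraries overlapped between BCORL1 and BCOR and between BCL6 and NCOR1, so the order within those neighbours was within their spread.

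With PRL, BCOR came second on this scale, at 15.8 in intact and 16.6 in deleted cells, against 10.0 and 8.14 for BCORL1. The ranges of this pair still overlapped with the intact I-tail (lowest BCOR value 11.1, in library 3, where BCORL1 was 1.08 times BCOR) and no longer with the deleted one (13.7 to 18.3 and 7.54 to 9.24). BCL6 was the lowest with PRL, at 1.28 and 1.15, below the ranges of NCOR1. The ratio of BCOR to BCL6 per kb was 9.17, 28.6 and 9.71 in intact PRL libraries against 1.34, 1.74 and 1.54 in intact untreated ones, and 10.7, 18.5 and 17.1 in deleted PRL libraries against 1.53, 1.84 and 1.88 in deleted untreated ones. The ratio of 28.6 belongs to intact PRL library 2, where BCL6 had its lowest count.

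**Figure D3:**
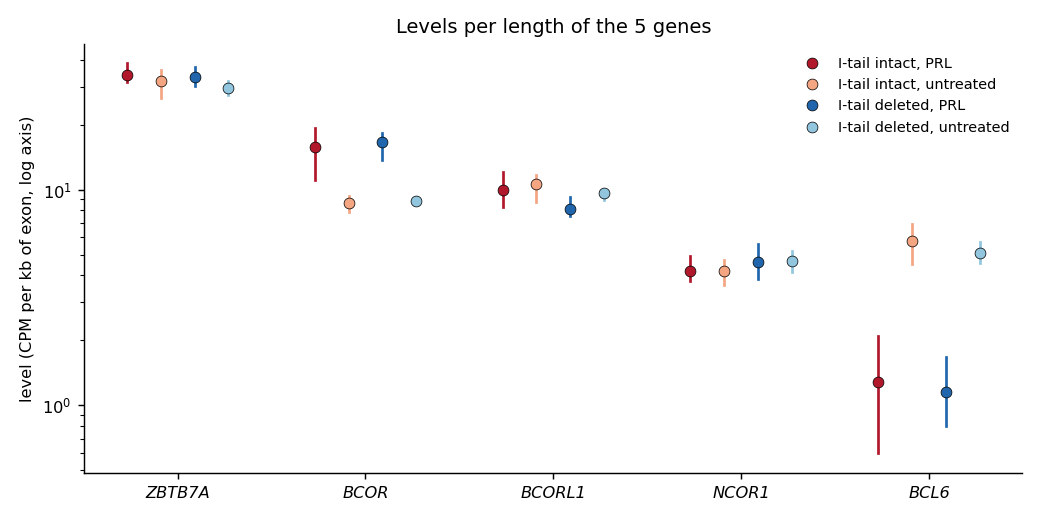
Level per kb of exon (log axis) of the 5 genes in the 4 groups, with the mean as a point and the range of the 3 libraries as a line. ZBTB7A stands near 30 CPM per kb in every group, BCL6 at 1.28 and 1.15 with PRL and 5.11 to 5.75 untreated.

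Whether the I-tail affects these genes was tested in the same fit. The averaged log2 fold change of the deletion, deleted over intact, was -0.16 ± 0.26 for BCL6, 0.05 ± 0.14 for BCOR, -0.22 ± 0.13 for BCORL1, 0.15 ± 0.13 for NCOR1 and -0.06 ± 0.12 for ZBTB7A. None of the 5 passed (edgeR quasi-likelihood test with Benjamini-Hochberg adjustment over all genes, adjusted p = 0.991 for each), beside 0.00566% of all genes. At an unadjusted p under 0.05 the count in this fit, which has no covariate, was also 0 of 5, beside 2.28% of all genes. It was 0 of 5 as well for the adjusted p of DESeq2 and of limma-voom. The smallest unadjusted p was that of BCORL1, 0.117, which was lower in deleted than in intact cells by 0.30 ± 0.18 on the log2 scale with PRL and by 0.14 ± 0.18 untreated. With a block for each run of 4 titles, the SEs of the averaged deletion effect were smaller, at 0.07 to 0.16. The adjusted p values of that edgeR fit were 0.344 for BCORL1 to 0.840 for BCOR, and its unadjusted count is not given.

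The deletion was also tested in each treatment. In untreated cells the log2 fold changes of the 5 genes ran from -0.17 to 0.15, and with PRL from -0.30 to 0.14, with 0 of 5 called in either by edgeR, DESeq2 or limma-voom and 0 of 5 at an unadjusted p under 0.05 (of all genes, edgeR called 0.00566% in each, and 0.837% untreated and 1.62% with PRL were at an unadjusted p under 0.05). The 95% interval of the averaged effect was -0.73 to 0.41 for BCL6 and -0.26 to 0.36 for BCOR, so changes within those bounds are not excluded by these 12 libraries.

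The difference between the receptor pairs in the PRL effect, deleted minus intact, was 0.02 ± 0.53 for BCL6, 0.04 ± 0.29 for BCOR, -0.16 ± 0.26 for BCORL1, -0.01 ± 0.27 for NCOR1 and 0.07 ± 0.24 for ZBTB7A on the log2 scale. None passed (edgeR, adjusted p = 1 for each, 0 of 5 at an unadjusted p under 0.05 and 0 of 5 by DESeq2 and limma-voom), beside 0% of all genes called and 0.718% at an unadjusted p under 0.05. The interval was -1.12 to 1.16 for BCL6 and -0.58 to 0.66 for BCOR. A difference of 2-fold in the BCL6 response between the receptor pairs therefore lies within the interval of this fit, which has no covariate. With a block for each run of 4 titles, the difference was 0.04 ± 0.31 for BCL6 and 0.06 ± 0.21 for BCOR. No interval was computed for that fit. The sign of this difference changed between leave-outs for every member except BCORL1.

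**Figure D4:**
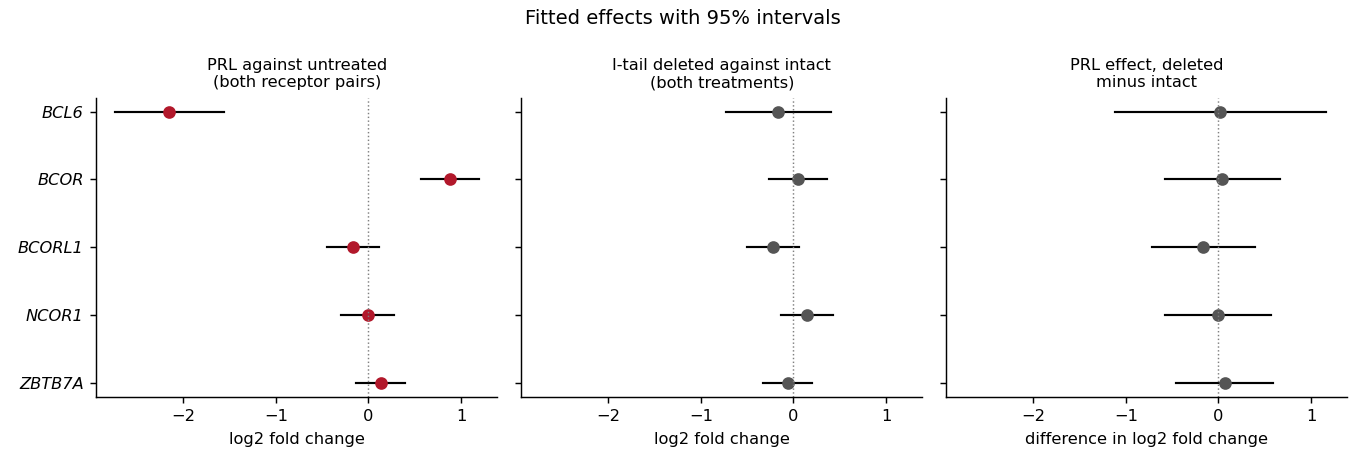
Fitted log2 effects of PRL, of the I-tail deletion, and of the difference in PRL effect between the receptor pairs, with 95% intervals, for the 5 genes. The PRL panel shows BCL6 at -2.15 and BCOR at 0.88, which are the values that chose the genes, and all intervals in the other 2 panels include 0.

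Other genes linked to BCL6, as cofactors, relatives, regulators or targets, were taken from 7 lists with 107 genes, of which 97 were tested. For the averaged PRL effect 3 rose in edgeR, 0 fell and 94 did not pass, beside 0.113% of all genes called higher. The 3 were CISH, SOCS2 and JUN, all of the last list. Their rise was known when that list was made, so nothing is read from the count beside that share. The median log2 fold change was 0.00 against -0.02 over all tested genes. DESeq2 and limma-voom called 7 of the 97 each, CISH, SOCS2 and JUN among them, beside 86 and 118 of the 17677 genes. All lists were chosen with earlier results of these data known, so nothing is read from these counts either. For the averaged deletion effect 0 were called (1 at an unadjusted p under 0.05) and for the difference between the receptor pairs 0 were called (0 at an unadjusted p under 0.05), with 0 by DESeq2 and limma-voom in both.

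Among 6 other genes of the NCOR-HDAC3 complex edgeR called none, beside 0.119% of all tested genes. At an unadjusted p under 0.05 there was 1, beside 3.81% of all tested genes. DESeq2 and limma-voom called 1 of the 6 each, beside 86 and 118 of the 17677 tested genes. The median log2 fold change of the 6 genes with PRL was 0.02 beside -0.02 over all tested genes. HDAC3, the deacetylase of the complex, stood at 0.15 ± 0.13 and the adaptor TBL1XR1 at -0.18 ± 0.26 (edgeR, adjusted p = 0.980 for each).

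Of 9 genes of the BCOR complex and its partner CBX8, none passed in edgeR, beside 0.119% of all tested genes. CBX8, a Polycomb chromobox protein reported in a complex with BCL6 and BCOR, was 14.4 to 21.7 CPM with PRL, against 23.8 to 28.2 CPM untreated. Its PRL libraries were all below the untreated ones, as in 0.238% of all tested genes. Its log2 fold change was -0.48 ± 0.13 (edgeR, adjusted p = 0.408), and DESeq2 and limma-voom called it (adjusted p = 0.0497 and 0.0479). RYBP and YAF2, related subunits that bind the RING proteins, stood at 0.36 ± 0.21 and 0.30 ± 0.22 (edgeR, adjusted p = 0.980 for each), and RING1, PCGF1, KDM2B, RNF2, SKP1 and USP7 lay between -0.10 and 0.14. 

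None of the 13 NuRD subunits (range -0.16 to 0.34) passed by edgeR, DESeq2 or limma-voom, and none had an unadjusted p under 0.05. Of all tested genes, edgeR called 0.119%, and 3.81% had an unadjusted p under 0.05, so 0 of 13 is near those shares. GATAD2A, MBD3 and RBBP4 had the smallest p, at 0.28 ± 0.13, 0.34 ± 0.19 and -0.16 ± 0.18. MTA3, the subunit through which BCL6 binds NuRD, stood at -0.11 ± 0.16. Among 13 other cofactors tested of 14, 0 passed in edgeR and 1 had an unadjusted p under 0.05, SPEN, a transcriptional repressor of the Notch pathway that binds NCOR proteins (0.44 ± 0.12, edgeR, adjusted p = 0.474). SPEN was called by DESeq2 (adjusted p = 0.0344) and limma-voom (0.0415). It was 94.6 to 126.5 CPM with PRL, against 69.7 to 92.3 CPM untreated. Its PRL libraries were all above the untreated ones, as in 0.441% of all tested genes. The deacetylase HDAC7 stood at 0.34 ± 0.21 and the acetyltransferase CREBBP at -0.14 ± 0.11.

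The 19 other BTB zinc finger genes tested of 20 ran from -0.24 to 0.27, with 0 called by edgeR, DESeq2 or limma-voom and 0 at an unadjusted p under 0.05. Of all tested genes, edgeR called 0.119%, and 3.81% had an unadjusted p under 0.05. Counts of 0 in lists of this size are near those shares. ZBTB33 stood at -0.24 ± 0.19, ZBTB18 at 0.27 ± 0.23 and ZBTB17, a partner of BCL6 on some genes, at 0.15 ± 0.14. BCL6B, the closest relative of BCL6, had 12 counts in all libraries together and was not tested. The 11 tested genes of the list of possible regulators of BCL6 ran from -0.29 to 0.12, again with 0 called by the 3 tools and 0 at an unadjusted p under 0.05. Whether each of them acts on BCL6 was not tested. FBXO10 stood at -0.29 ± 0.15, the forkhead factor FOXO4 at -0.14 ± 0.10, MEF2D at 0.12 ± 0.14, and FBXO11, which targets the BCL6 protein for degradation, at -0.14 ± 0.22. Protein levels were not measured here.

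The last list held 33 genes linked to repression by BCL6, mainly in B cells, or to sites shared with STAT5, and 27 were tested. In edgeR CISH, SOCS2 and JUN rose, 0 fell and 24 did not pass. DESeq2 and limma-voom called 4 of the 27 each, these 3 and ID2, beside 86 and 118 of the 17677 tested genes. The rise of CISH, SOCS2 and JUN was known when the list was made, so the counts are not independent evidence of a direction. CISH, a feedback inhibitor of STAT5 signalling, was 54.3 to 70.7 CPM with PRL, against 3.18 to 5.27 CPM untreated (log2 fold change 3.84 ± 0.18, edgeR, adjusted p = 1.45e-07). SOCS2, of the same inhibitor family, was 11.2 to 17.7 CPM with PRL, against 2.65 to 5.88 CPM untreated, and JUN, a subunit of AP-1, 156.0 to 220.5 CPM, against 40.8 to 68.2 CPM. In all 3 genes the PRL libraries lay above the untreated ones, as in 0.441% of all tested genes. The list's median was 0.02 beside -0.02 over all tested genes, with 16 of 27 above 0. ID2, an inhibitor of DNA binding factors, stood at 0.94 ± 0.21 and PRDM1, a repressor gene that BCL6 silences in B cells, at 0.76 ± 0.23 (edgeR, adjusted p = 0.221 and 0.672). DESeq2 called ID2 (0.95, adjusted p = 0.00195), as did limma-voom (0.87, adjusted p = 0.00920). MXD1 (-0.52 ± 0.21) and GADD45A (-0.45 ± 0.18) were on the other side (edgeR, adjusted p = 0.980 for each). CCND2, CD69, CXCL10 and IRF4 had 12 counts or fewer, and CDKN2A and CD80 none.

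**Figure D5:**
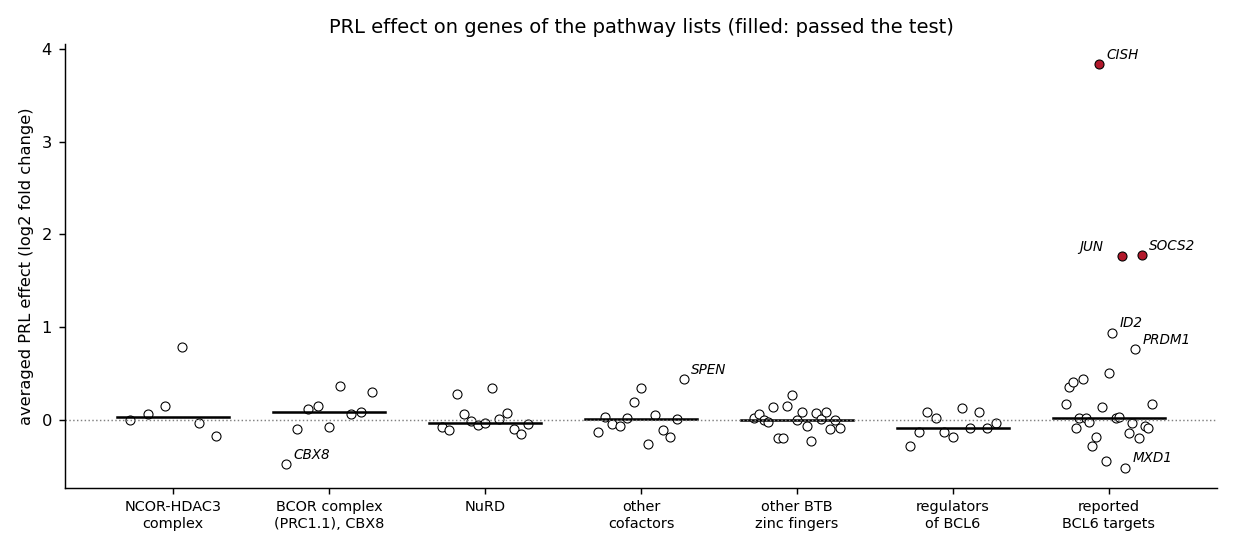
Averaged PRL effect (log2 fold change) of each tested gene in the 7 lists, with 1 point per gene, filled where it passed the edgeR test, and a bar at the list's median. CISH at 3.84, SOCS2 and JUN are the filled points, and the medians of the lists lie between -0.09 and 0.08.

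Genes with a pattern like BCL6 were ranked by Pearson's r of log2 CPM over the 12 libraries, among 12501 other genes with a symbol and a mean of at least 1 CPM. The libraries share the same PRL groups, so r reflects that split together with differences between libraries within groups. It does not rank the PRL effect, and IKZF4, named next, had an averaged log2 fold change of -0.22. Among the 5 highest values were those of TWIST1 (0.947), CITED2 (0.943), IKZF4 (0.936) and TOB1 (0.926). The lowest were those of JUNB (-0.962), ZC3H12A-DT (-0.961), IER3 (-0.961), RARA (-0.958) and TFEB (-0.946). TOB1 averaged 41.4 CPM in intact PRL and 40.4 CPM in deleted PRL cells, against 82.7 and 75.9 CPM in the untreated ones, a smaller fold than that of BCL6.

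For BCOR the highest r was that of IRS2 (0.963), with 182 and 197 CPM in intact and deleted PRL cells against 55.2 and 63.1 CPM in the untreated ones, followed by MSX1 (0.961), HRH1 (0.948), ENC1 (0.947) and ARF6 (0.937). The lowest were KLHDC7A (-0.890), PLD6 (-0.888), PIM3 (-0.880), DDIT4 (-0.878) and YPEL4 (-0.875). Between the members r over the 12 libraries was -0.78 for BCL6 and BCOR, -0.67 for BCOR and BCORL1 and -0.62 for BCORL1 and NCOR1, and 0.23 for BCL6 and BCORL1.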

How the data were processed

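The 12 libraries of MCF10AT cells were made by polyA selection, per the labels' protocols. The authors deposited unnormalized counts, whole numbers for each Ensembl gene. The submitters' processing notes name FastQC, STAR 2.7.9a, Subread with featureCounts, and GRCh38. The annotation release, strand setting and filters were not given in the sources used here. Of 62703 entries, 1 without values was left out. Replicates differed by more than sampling noise (chi-square per degree of freedom 57.2 to 239.6 over genes with at least 20 counts in the pair). Libraries were numbered 1 to 3 within a group.

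Fits were made with edgeR 4.0.16 in R 4.3.3, after filterByExpr and TMM scaling, with a mean for each of the 4 groups and no covariate (robust quasi-likelihood test, 8 residual degrees of freedom). Benjamini-Hochberg adjustment ran over all 17677 tested genes, with calls at 0.05. An SE is the log2 fold change over the root of its F statistic. Log2 CPM used a prior count of 2. Exon lengths and gene coordinates came from GENCODE 29 (GRCh38), promoter sequences from RefSeq (GRCh38.p14). The fits were run on simulated counts drawn independently for each library, and the outcome is not given here. The simulation held no correlation within runs of titles, so it cannot show how the fits behave under the one described below.

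The members and lists were chosen with earlier results of these data known. The text names the 5 members, in each list the genes called and the 3 with the smallest p for the averaged PRL effect, the 5 highest and 5 lowest correlations with BCL6 and BCOR, and overlapping genes. A few genes that this rule names are not reported here. Other list genes (RING1, PCGF1, KDM2B, RNF2, SKP1, USP7, MTA3, FBXO11, ID2, PRDM1, MXD1, GADD45A and those with few counts) were chosen once their values were seen. Among the alternatives were DESeq2 1.42.0, RLE and library size scaling, no filter or a minimum of 1 CPM and 10 counts in 3 libraries, limma-voom (limma 3.58.1), a block for runs of 4 titles, 1 surrogate variable (sva 3.50.0), the compared groups only, and leaving out each library. Leaving out intact PRL library 2 and intact untreated library 2 together was added after the data were seen.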

Additional observations from a re-analysis of the deposited data

How the results depend on the processing

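Averaged PRL effects of the 5 genes moved by less than the SD between replicates in all alternatives run: BCL6 stayed between -2.43 and -1.98 over the leave-outs and between -2.29 and -2.01 over the other settings, and BCOR between 0.80 and 0.99 and between 0.71 and 0.92. With the intact I-tail alone, BCOR was 0.47 with limma-voom, against 0.86 with edgeR, and BCL6 was -2.72 without intact PRL library 1. The count of 2 members past the threshold for PRL, which restates the choice of the genes and supports nothing, was 1 with library size scaling, 1 without intact untreated library 2 and intact PRL library 2 together, and 1 to 2 over the leave-outs (1 in 9 of 12), BCOR being the gene no longer past it. No member was called for the deletion or for the difference between the receptor pairs under any setting run, but small values changed sign. For the averaged deletion effect ZBTB7A was 0.037 with library size scaling, 0.008 with 1 surrogate variable and 0.030 without those 2 libraries, and the leave-outs gave -0.35 to 0.12 for BCL6 and -0.077 to 0.134 for BCOR. For the difference between the receptor pairs NCOR1 was 0.029 with library size scaling and 0.003 without a filter, BCL6 was -0.18 without those 2 libraries, and the leave-outs gave -0.35 to 0.58 for BCL6, -0.16 to 0.21 for BCOR, -0.16 to 0.12 for NCOR1 and -0.045 to 0.180 for ZBTB7A. The cause was not tested.

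Counts over all genes moved more. The 21 genes called for the averaged PRL effect were 124 without a filter, 86 with DESeq2, 118 with limma-voom, 140 with 1 surrogate variable and 11 to 27 over the leave-outs (11 and 12 where deleted untreated library 2 or 1 was missing). The 1 gene called for the averaged deletion effect became 33, 10, 9 and 4 in those 4 settings and 1 to 2 over the leave-outs. In untreated cells the 1 gene became 6 without a filter, 4 with DESeq2, 6 with limma-voom, 0 with library size scaling, 0 in a fit of the compared groups only, 0 without those 2 libraries and 0 to 1 over the leave-outs. With PRL it became 4, 2, 2, 0 and 0 in the first 5 of these and 0 to 1 over the leave-outs. List genes called higher for PRL were 3, and 5 without a filter, 6 with DESeq2, 6 with limma-voom and 8 with 1 surrogate variable, and those called lower were 0, and 1 with DESeq2, limma-voom and the surrogate variable. Library size scaling shifted the median of all genes for PRL to -0.12, against -0.02 with TMM.

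The labels give no replicate numbers, and the titles' numbers are not said to mark a batch or day. Each run of 4 titles holds 1 library per group, and in 18 pairs of libraries of the same run the deviations from the group means correlated at 0.10 to 0.60, with all 12 libraries closest to their own run. With this replicate block the averaged PRL effect was -2.23 ± 0.16 for BCL6 and 0.86 ± 0.10 for BCOR, 198 genes were called for PRL and 11 for the averaged deletion, and 7 list genes were called higher, SPEN (adjusted p = 0.00805), ID2 and PRDM1 among them, and 1, CBX8, lower. The smallest adjusted p of a member for the averaged deletion was then 0.344, for BCORL1. Depth limits BCL6 most in intact PRL library 2, with 119 counts.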
